A study of Mus musculus with 2 samples.

Results

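The receptor of TWEAK, a cytokine of the tumour necrosis factor (TNF) family, and the proteins that pass its signal to the transcription factor NF-kappaB were examined in mouse liver. The set held 10 genes: the ligand gene Tnfsf12, the receptor genes Tnfrsf12a, Tnfrsf1a and Tnfrsf1b, and the signalling genes Traf2, Birc2, Map3k14, Nfkbia, Nfkb2 and Relb. They were selected on earlier results of the same 2 arrays, in which Tnfrsf12a had one of the larger positive differences, so its value below is a description and supports nothing by itself. Members were the probe sets whose platform annotation gives 1 of these symbols and no other. This found 17 probe sets for 9 of the 10 genes, among 45101 probe sets in all. Tnfsf12 has no value here, because both of its probe sets are annotated to several genes.

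Liver RNA came from male C57Bl/6J mice that were 9 weeks old at the start and ate a diet depleted of n-3 polyunsaturated fatty acids, made with sunflower oil, until the last 10 days of a feeding period of 112 days. In those last days the DEF/FOS mice stayed on the depleted diet, whose n-6 to n-3 ratio was 127.2, and took 0.25 g of fructooligosaccharides (FOS, fermentable plant fibres) per day in their water. The DEF/CT mice instead changed to a control diet with soybean oil and a ratio of 6.9. RNA of a group's mice was pooled in equal amounts and each pool was hybridised to 1 Affymetrix array. The treatment protocol gives 8 mice per group and the extract protocol 4 to 8, so the number of mice in a pool is uncertain. Fibre and dietary oil both differed between the pools and cannot be told apart. Each pool has a single array, so no difference could be tested, and the number of arrays limits the precision of every value below.

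TWEAK binds the small receptor Fn14, the product of Tnfrsf12a, which is scarce in resting liver and is induced when the liver is injured or regenerates. In mouse liver this pair is known for driving the growth of progenitor cells around the bile ducts. The engaged receptor recruits TRAF2 together with the ubiquitin ligase cIAP1, the product of Birc2. The kinase NIK, the product of Map3k14 and otherwise degraded through that complex, then accumulates and the p100 protein of Nfkb2 is processed to p52, which works with RelB. The TNF receptors act mainly through the other branch, in which IkappaB-alpha, the product of Nfkbia, is degraded and the RelA dimers it held are released.

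The values are MAS5 signals, a brightness per probe set on a linear scale. A signal floor was set at 19.4, the median over all probe sets of the mean of both pools, and 15 of the 17 member probe sets lay at or above it. Differences are log2 signals of DEF/FOS minus DEF/CT, centred so that their median above the floor is 0, and folds come from these differences. Each gene is represented by its brightest probe set where genes are counted. The SD over the probe sets of a gene, 0.38 on the log2 scale over 4885 genes, is used as the technical spread. It does not cover how animals or arrays vary. The labelled tissue was checked by its markers. Hepatocyte markers summed to 70456 in DEF/FOS liver and 74626 in DEF/CT liver over 10 genes, with a median difference of -0.05. The pools differed in skeletal muscle markers, which summed to 199.1 in DEF/FOS liver and 2876 in DEF/CT liver. Of these markers 12 of 13 above the floor were lower by 2-fold or more, where 2.19% of all genes were. Skeletal muscle is not a cell type of the liver, and where these signals came from was not tested. For cell types of the liver, fewer cells and less RNA per cell cannot be told apart in pooled tissue.

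Tnfrsf12a, the gene of Fn14, had the largest difference of the members, and the set was selected with this difference known. Its first probe set (1418571_at) had a signal of 312.6 in DEF/FOS liver and 55.0 in DEF/CT liver, which is 5.74-fold higher. The other probe set (1418572_x_at) had 214.2 in DEF/FOS liver and 19.8 in DEF/CT liver, the second of these barely above the floor, which is 10.9-fold higher. Both probe sets were therefore far higher in the DEF/FOS pool. Their log2 differences of 2.52 and 3.45 lie 0.93 apart, while probe sets of genes at mean signals of 80.6 to 128 had an SD of 0.36. The suffix x marks a probe set that may also bind other transcripts.

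By its brighter probe set Tnfrsf12a stood in place 8 of 11163 genes above the floor, counted from the largest positive difference. The window of 0.5 log2 units on either side of its mean signal held 2253 genes, of which 24 reached 2-fold in this direction, and Tnfrsf12a had the largest difference of them. In the ranking of 10953 genes with a DEF/CT signal at or above the floor it came in place 5, between the neutrophil- and liver-secreted protein Lcn2 at 2.53 and the chemokine Cxcl1 at 2.39. The next genes above were Cyp4a14, a fatty acid hydroxylase, at 3.80 and the metallothionein Mt1 at 3.99. The next below were the glutathione transferases Gstm3 at 2.33 and Gsta2 at 2.32. These 6 genes resemble it only in the size of 1 difference between 2 arrays.

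**Figure D1:**
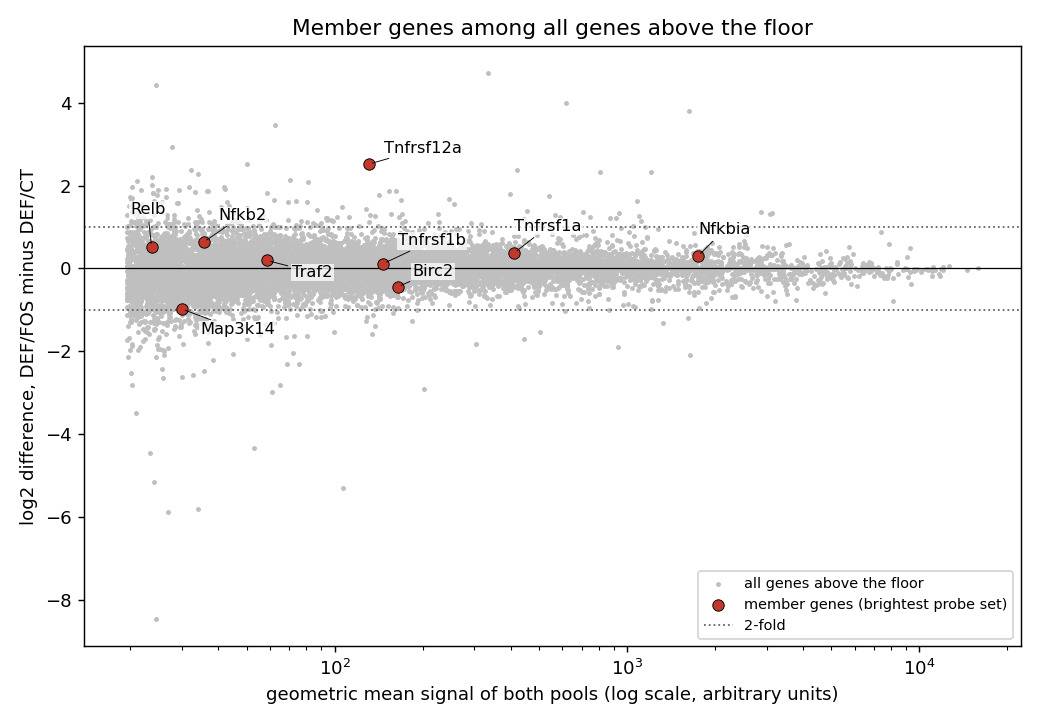
Difference between the pools (log2, DEF/FOS minus DEF/CT) against the mean signal of both pools (log scale) for 11163 genes above the floor, 1 point per gene, with the 9 measured members in red. Tnfrsf12a at 2.52 stands above the 2-fold line, and the other 8 members lie between -0.98 and 0.64.

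The RefSeq promoter windows of the set (GRCm38.p6, 250 bases before to 50 after the transcription start) were searched on both strands for the NF-kappaB binding consensus, known as the kappaB site, and for the AP-1 site TGANTCA. The table held 11 windows of 8 of the 10 genes. A kappaB match was present in 4 windows of 2 genes, Nfkbia and Nfkb2, where 8.46% of all 32851 windows of this length hold 1. Of these 4 windows 3 belong to Nfkb2. Its windows at start sites 2 and 3 overlap and share 1 match, GGGACTTTCC, so the member windows are not independent and nothing is read from their share. An AP-1 match was present in 1 member window, that of Nfkb2 at start site 2, where 7.81% of all windows hold 1, and it overlapped no kappaB match. Shown are the windows of Tnfrsf12a, the member that differed most, of Nfkbia, the member with most probe sets, and of Nfkb2 at the start site with most matches. Capitals mark kappaB matches. The windows lie at chr17:23677400-23677699 on the minus strand, chr12:55492598-55492897 on the minus strand and chr19:46304487-46304786 on the plus strand.
Tnfrsf12a: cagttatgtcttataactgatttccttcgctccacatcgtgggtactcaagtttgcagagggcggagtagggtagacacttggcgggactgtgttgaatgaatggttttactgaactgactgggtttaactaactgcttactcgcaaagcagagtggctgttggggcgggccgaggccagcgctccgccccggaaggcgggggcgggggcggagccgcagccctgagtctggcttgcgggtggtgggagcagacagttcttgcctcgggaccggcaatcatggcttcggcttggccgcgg
Nfkbia: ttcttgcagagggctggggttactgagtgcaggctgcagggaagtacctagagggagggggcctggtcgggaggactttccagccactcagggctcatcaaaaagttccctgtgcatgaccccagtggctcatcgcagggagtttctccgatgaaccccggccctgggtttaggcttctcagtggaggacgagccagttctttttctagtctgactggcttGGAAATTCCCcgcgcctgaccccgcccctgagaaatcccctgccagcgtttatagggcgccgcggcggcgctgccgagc
Nfkb2: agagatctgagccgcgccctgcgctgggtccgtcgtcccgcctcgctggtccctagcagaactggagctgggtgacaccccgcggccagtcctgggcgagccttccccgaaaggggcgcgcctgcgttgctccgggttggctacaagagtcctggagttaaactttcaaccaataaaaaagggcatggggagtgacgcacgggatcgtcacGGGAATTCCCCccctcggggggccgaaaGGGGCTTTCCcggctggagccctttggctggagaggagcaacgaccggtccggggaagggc
The Tnfrsf12a window holds 0 matches of either motif, which says only that these letters are not in these bases. In Nfkbia the match GGAAATTCCC begins 29 bases before the start. In Nfkb2 the overlapping matches GGGAATTCCC and GGAATTCCCC begin 39 and 38 bases before it, and GGGGCTTTCC begins 11 bases before it. A match is a description of the letters, not of binding.

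The receptors for TNF itself differed little between the pools. Tnfrsf1a, which encodes the death-domain receptor found on most cells, had a signal of 466.5 in DEF/FOS liver and 362.8 in DEF/CT liver, a log2 difference of 0.38. Tnfrsf1b, whose receptor is found mostly on immune and endothelial cells, had 152.0 in DEF/FOS liver and 141.6 in DEF/CT liver at its brighter probe set. Its other probe set had 51.3 in DEF/FOS liver and 48.7 in DEF/CT liver. The differences of Tnfrsf1b, 0.12 and 0.09, are smaller than the SD of 0.38 over all genes. That of Tnfrsf1a is about as large as the SD of 0.38 over all genes and larger than the SD of 0.22 that genes with signals above 261 had.

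The adaptor and the ligase of the receptor complex lay on opposite sides of 0. Traf2 had a signal of 62.5 in DEF/FOS liver and 55.3 in DEF/CT liver, a difference of 0.19, where the SD at its signals was 0.44. Birc2 had 140.5 in DEF/FOS liver and 192.8 in DEF/CT liver, 1.36-fold lower, a difference of -0.44 where the SD at its signals was 0.30. Each of these genes has 1 probe set, so no further reading is at hand.

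Map3k14, the gene of the kinase NIK, was the member with the largest negative difference. Its brighter probe set (1422999_at) had a signal of 21.3 in DEF/FOS liver and 42.4 in DEF/CT liver, which is 1.97-fold lower, a log2 difference of -0.98. Its other probe set had 6.78 in DEF/FOS liver and 12.1 in DEF/CT liver, both below the floor, so no fold is given for it. The brighter reading in the DEF/FOS pool is close to the floor. At this signal the readings are coarse: among genes with mean signals of 20.0 to 51.3, probe sets of the same gene had an SD of 0.53.

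Nfkbia, whose product holds NF-kappaB in the cytoplasm and whose transcription NF-kappaB drives, had the most probe sets. The brightest of its 5 probe sets had a signal of 1927 in DEF/FOS liver and 1585 in DEF/CT liver, 1.23-fold higher. Of the others, 3 had log2 differences of 0.42, 0.45 and 0.34, and the dimmest, at 66.5 in DEF/FOS liver and 78.2 in DEF/CT liver, had -0.22. Thus 4 of the 5 probe sets were higher in DEF/FOS liver, by 1.23-fold to 1.37-fold. Among probe sets of genes at mean signals above 261 the SD was 0.22.

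The genes of the p52 and RelB pair had readings close to the floor. Nfkb2, which encodes p100, had 44.3 in DEF/FOS liver and 28.7 in DEF/CT liver at its brighter probe set (1429128_x_at), 1.56-fold higher. Its other probe set had 14.1 in DEF/FOS liver, which is below the floor, and 21.7 in DEF/CT liver, and was thus lower by at least 1.10-fold. The probe sets of Nfkb2 thus disagreed in sign. Relb had 28.2 in DEF/FOS liver and 19.9 in DEF/CT liver, 1.43-fold higher by its only probe set, and the DEF/CT reading is close to the floor.

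**Figure D2:**
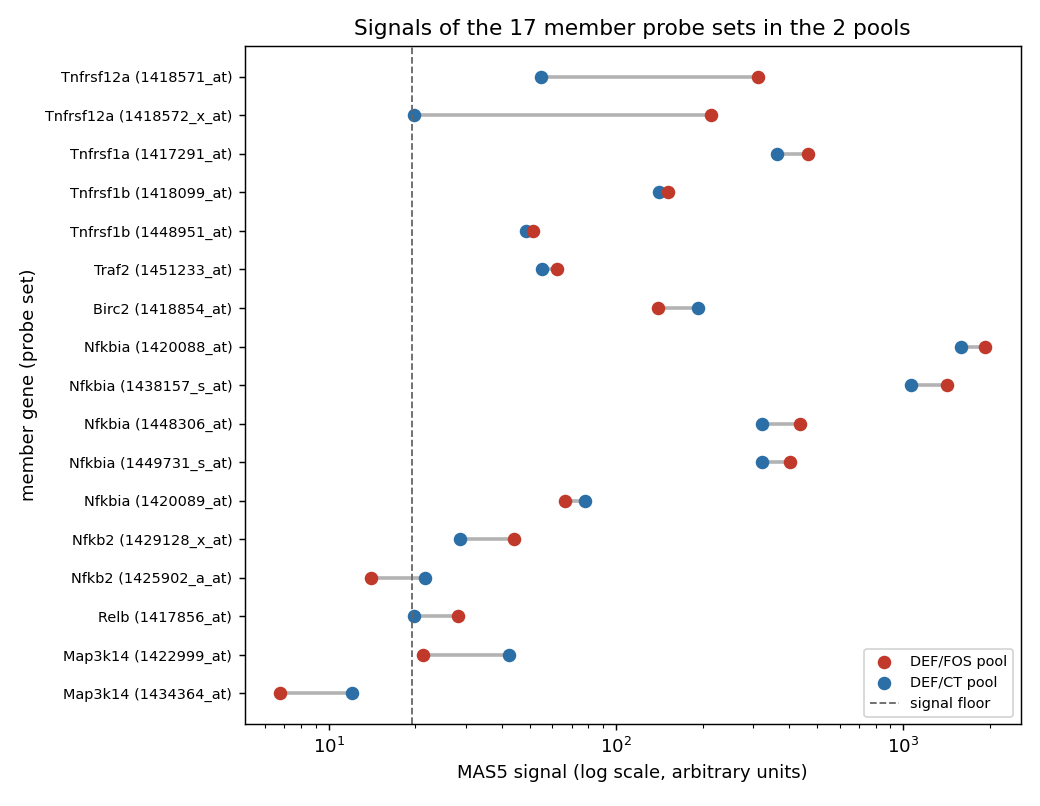
MAS5 signals (log scale) of the 17 member probe sets, 1 row each, in the DEF/FOS pool (red) and the DEF/CT pool (blue), with the signal floor of 19.4 as a dashed line. The widest gaps are those of the Tnfrsf12a probe sets, at 312.6 in DEF/FOS liver against 55.0 in DEF/CT liver and at 214.2 in DEF/FOS liver against 19.8 in DEF/CT liver, and 12 of the 17 probe sets have the red point to the right.

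Over the 9 measured genes, 7 had a positive and 2 a negative difference, where 49.9% of all 11163 genes had a positive one. Tnfrsf12a and Nfkb2 were at least 1.5-fold higher in the DEF/FOS pool, that is 2 of 9, against 6.75% of all genes, and Map3k14 alone was at least 1.5-fold lower, against 7.82%. At 2-fold Tnfrsf12a alone was higher, against 1.74% of all genes, and 0 members were lower, against 2.19%. Since the genes were chosen with such differences in view, these counts are set beside the background and nothing is read from them. The median of the 9 differences was 0.30, and it was 0.24 without Tnfrsf12a. Over all 11163 genes the median was 0.00 and the quartiles were -0.24 and 0.22.

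Further genes of the pathway were taken from lists of known function, which were also drawn up with earlier results of these arrays known. For genes outside the set, numbers and ranges of probe sets cover only those above the floor. Of the subunits, inhibitors and kinases of NF-kappaB, 12 of 14 measured genes lay above the floor, and 1 was at least 1.5-fold higher and 0 lower. By as much, 6.75% of all genes were higher and 7.82% lower. The higher gene of the list was Bcl3, an atypical inhibitor that binds p52 in the nucleus. It had 368.9 in DEF/FOS liver and 191.3 in DEF/CT liver, 1.95-fold higher. The inducible inhibitor-like gene Nfkbiz was 1.49-fold higher, although its 3 probe sets ranged from -0.17 to 0.58. Ikbkg, the regulatory subunit of the IkappaB kinase, was 1.39-fold higher, with positive differences of 0.30 to 0.86 over its 6 probe sets. Nfkbie, another inhibitor gene, had 18.1 in DEF/FOS liver, below the floor, and 24.0 in DEF/CT liver, and was lower by at least 1.22-fold. The subunit gene Rela differed by 0.10. The median of this list was 0.02.

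Proteins of the TRAF and receptor complexes had a median of -0.02 over 13 genes above the floor, with 1 at least 1.5-fold higher and 0 lower. By as much, 6.75% of all genes were higher and 7.82% lower. Rbck1, a part of the linear ubiquitin ligase, was 1.52-fold higher at 197.9 in DEF/FOS liver and 131.7 in DEF/CT liver. Rnf31, the catalytic part of the same ligase, was 1.39-fold lower. The ubiquitin-conjugating enzyme gene Ube2n was 1.29-fold and the protease gene Casp8 1.25-fold higher. Birc3, the closest relative of Birc2, differed by -0.12.

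Negative regulators of NF-kappaB had a median of 0.03 over 12 genes, with 2 at least 1.5-fold higher and 0 lower. By as much, 6.75% of all genes were higher and 7.82% lower. Tnfaip3, the gene of the deubiquitinase A20, had 74.7 in DEF/FOS liver and 30.7 in DEF/CT liver, 2.46-fold higher by 1 probe set. N4bp1, an inhibitor of NF-kappaB, was 1.60-fold higher, and its 3 probe sets ranged from 0.16 to 0.89. Commd1, which promotes RelA turnover, was 1.31-fold higher by 1 probe set and differed by 0.0017 by the other. Cyld, another deubiquitinase gene, was 1.26-fold lower, and its probe sets ranged from -0.37 to 0.30.

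Of the other receptors of the TNF family, 10 of 21 measured genes lay above the floor, with a median of 0.01. By their signals 3 differed by at least 1.5-fold, all of them higher, where 6.75% of all genes were higher by as much. All 3 had a DEF/CT signal below the floor, so that only bounds can be given. Tnfrsf21 (death receptor 6) had 47.9 in DEF/FOS liver and 13.0 in DEF/CT liver, at least 2.49-fold higher. Tnfrsf11a (RANK) was at least 2.06-fold and Tnfrsf11b (osteoprotegerin) at least 1.42-fold higher, and Tnfrsf22, a decoy receptor, was 1.39-fold higher. Of the other TNF family ligands, 2 of 14 measured genes lay above the floor: Tnfsf10 (TRAIL), 1.38-fold lower, and Ltb (lymphotoxin beta), which differed by 0.00. The gene of TNF itself lay below the floor in both pools, with 18.6 in DEF/FOS liver and 3.04 in DEF/CT liver.

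Genes that NF-kappaB is known to drive came next, and 24 of 35 measured ones lay above the floor. Of these, 10 were higher by 1.5-fold or more, which is 41.7% where 6.75% of all genes were, and 0 were lower by as much. At 2-fold 7 were higher and 0 lower, against 1.74% and 2.19% of all genes, and the median was 0.24. With the floor at the 75th percentile of signal, 4 of 13 were higher by 1.5-fold or more, where 244 of all 6751 genes were. Lcn2 had 119.6 in DEF/FOS liver and 20.9 in DEF/CT liver, 5.79-fold higher. Cxcl1, which attracts neutrophils, had 960.0 in DEF/FOS liver and 185.4 in DEF/CT liver, 5.23-fold higher by the brightest of 3 probe sets, which ranged from 0.50 to 2.39, with a median of 1.58. Ier3, an early-response survival gene, was 3.91-fold higher, and Gadd45b, a stress sensor, 3.06-fold higher. The 3 probe sets of Gadd45b ranged from 0.33 to 4.44, and without the suffixed probe sets the gene stood at 0.33. The adhesion molecule gene Icam1, named after its value was seen, had 146.7 in DEF/FOS liver and 66.5 in DEF/CT liver, 2.23-fold higher.

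As this list too was drawn up with earlier results known, its count is not independent evidence of a direction, and many of its genes also answer to other factors. Of its 24 genes 4 also stand in the lists of pathway proteins, namely Tnfaip3, Birc3, Nfkbie and Bcl3, and 3 among the 13 early genes described next, namely Ier3, Junb and Myc. Other known targets lay below the floor on average, among them Cxcl2, Ccl2, Il6 and Nos2. Markers of neutrophils, which carry Lcn2 in their granules, summed to 339.3 in DEF/FOS liver and 146.8 in DEF/CT liver over 5 of 9 measured genes above the floor. The sum rested on S100a8, at 146.6 in DEF/FOS liver and 33.8 in DEF/CT liver, and S100a9, at 109.6 in DEF/FOS liver and 35.1 in DEF/CT liver. The other 3, Csf3r, Ngp and Elane, had log2 differences of 0.46, 0.10 and -0.30. Of the defining granule genes, Camp and Ltf lay below the floor in both pools, and Mpo had 2.83 in DEF/FOS liver, below the floor, and 21.8 in DEF/CT liver. The marker Cxcr2 had 29.6 in DEF/FOS liver and 3.88 in DEF/CT liver, below the floor, and like Mpo it lay below the floor by the mean of both pools. The part of these cells in the difference was not tested.

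Immediate early genes, the class to which Fn14 belongs in growth-factor-treated cells, had a median of 0.37 over 13 genes above the floor. Of these, 4 were at least 1.5-fold higher, which is 30.8% where 6.75% of all genes were, and 0 lower. With the floor at the 75th percentile of signal 0 of 8 were at least 1.5-fold higher, where 244 of all 6751 genes were. Beside Ier3 they were the AP-1 subunit gene Fosl2, 2.37-fold higher by the first of its 2 probe sets and at -0.15 by the other, the growth factor gene Hbegf, at least 1.52-fold higher with a DEF/CT signal below the floor, and the transcription factor gene Klf6, 1.89-fold higher. The classical early genes Fos, Jun and Egr1 differed by 0.42, 0.15 and 0.02, and 3 genes had negative differences, Junb at -0.50, Ier2 at -0.17 and Fosb at -0.05.

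**Figure D3:**
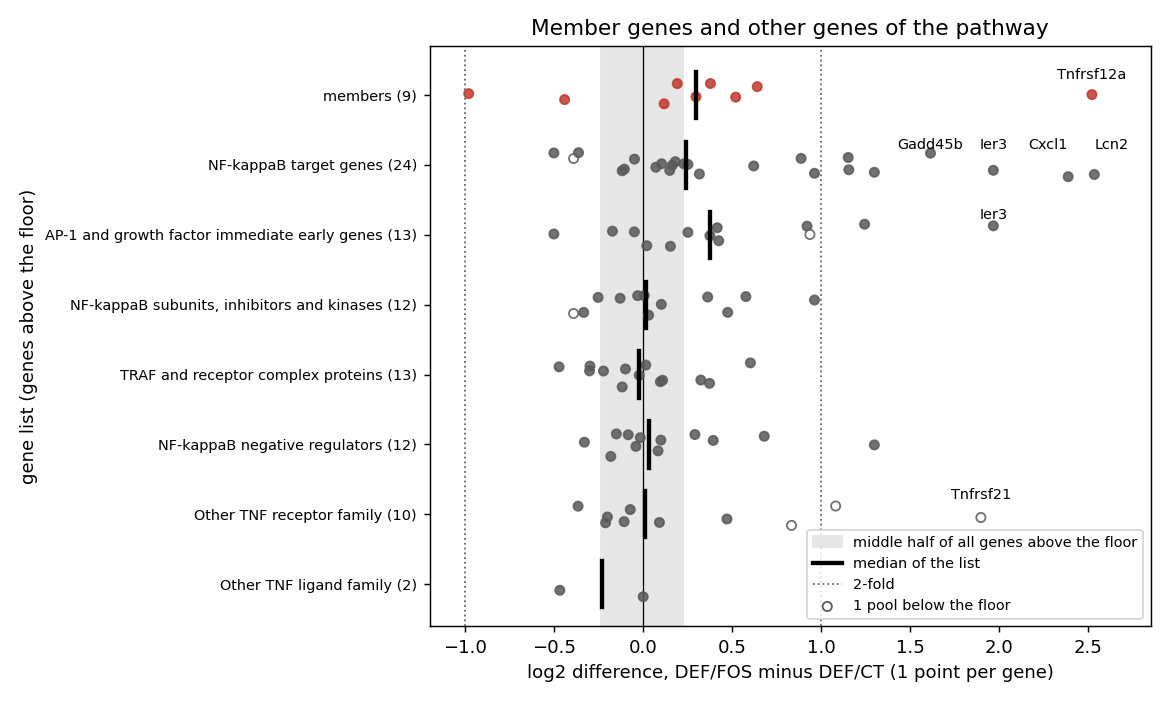
Differences (log2, DEF/FOS minus DEF/CT) of the members (red) and of 7 lists of pathway genes (grey), 1 point per gene above the floor; bars are list medians, the shaded band spans the quartiles of all genes, and open points have 1 pool below the floor. The medians of the target and the early gene lists are 0.24 and 0.37, and those of the lists of NF-kappaB proteins, TRAF complexes and negative regulators lie between -0.02 and 0.03, with signs that differ between settings.

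Markers of other cells that the samples could hold were measured beside these genes. Markers of bile duct and progenitor cells, on which Fn14 is known to act, had 7 of 10 measured genes above the floor and summed to 288.7 in DEF/FOS liver and 234.6 in DEF/CT liver. Of these, 4 had a positive and 3 a negative difference. The positive ones were Cd24a at 0.72, Krt19 at 0.62, Sox9 at 0.51 and Epcam at 0.19, and the negative ones Prom1 at -0.52, Krt23 at -0.37 and Afp at -0.06. The DEF/CT signal of Krt19 and the DEF/FOS signal of Prom1 lay below the floor. Cldn4, Ncam1 and Krt7 lay below the floor by the mean of both pools, and Krt7 had 20.0 in DEF/FOS liver and 12.3 in DEF/CT liver. Kupffer cell and macrophage markers summed to 4084 in DEF/FOS liver and 3422 in DEF/CT liver over 11 genes.

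B and plasma cell markers summed to 680.6 in DEF/FOS liver and 1349 in DEF/CT liver over 5 genes. The gap rested mostly on Ighm, at 243.5 in DEF/FOS liver and 808.8 in DEF/CT liver, whose 5 probe sets ranged from -1.72 to 0.23. All 5 genes had negative differences, from -1.72 for Ighm to -0.07 for Cd74. Like the skeletal muscle markers, the B and plasma cell markers were lower in DEF/FOS liver, where Map3k14 and Birc2 were also lower and Tnfrsf12a was higher. The sums of stellate cell and endothelial markers were 2653 and 2028 in the DEF/FOS pool, against 2848 and 2070 in the DEF/CT pool. T and NK cell markers had 2 of 8 measured genes above the floor, which summed to 44.2 in DEF/FOS liver and 58.8 in DEF/CT liver. The part of any of these cells in the member differences was not tested.

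The member differences were recomputed under 10 other settings. Tnfrsf12a stayed between 2.0 and 2.98, and in all 11 settings each of the 9 genes kept its sign wherever it had a value. An offset or another floor can hardly turn a sign, and all settings use the same 2 arrays. The dimmer Nfkb2 probe set, which has the opposite sign, entered the value of that gene in none of them. Map3k14 ran from -1.0 to -0.47, Nfkb2 from 0.34 to 0.70 and Relb from 0.23 to 0.64. Nfkbia ran from 0.27 to 0.35 and Birc2 from -0.47 to -0.37.

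**Figure D4:**
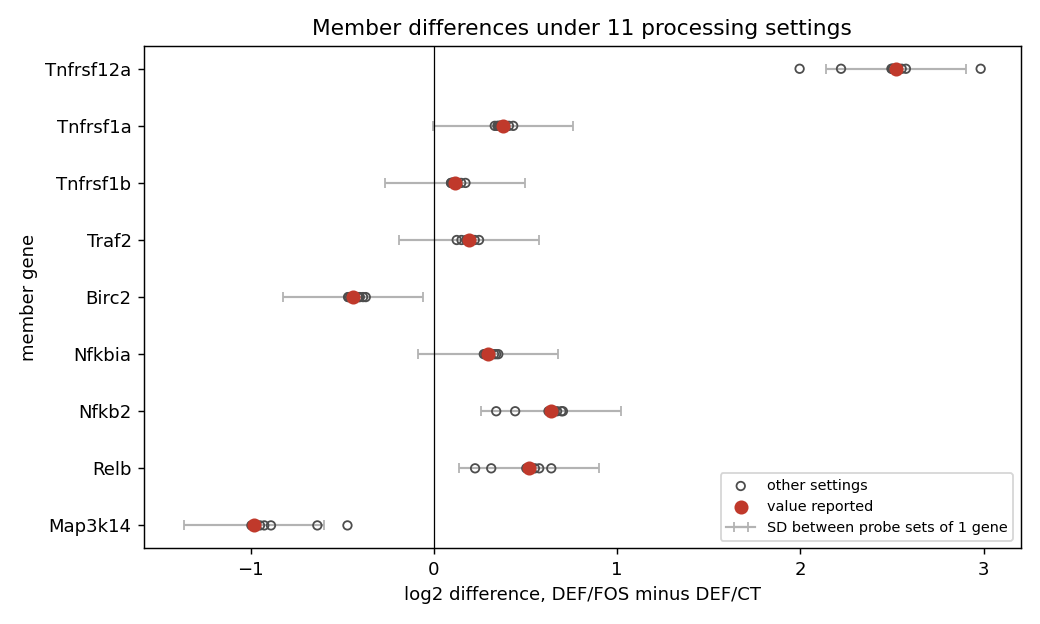
Difference of each measured member (log2, DEF/FOS minus DEF/CT) as reported (red) and under the other settings (open circles); bars span 0.38, the SD over probe sets of 1 gene, on either side of the reported value. Tnfrsf12a lies between 2.0 and 2.98 in all settings, and the bars of Tnfrsf1a, Tnfrsf1b, Traf2 and Nfkbia reach 0.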

How the data were processed

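Pooled liver RNA of the DEF/FOS and DEF/CT groups was measured on 1 Affymetrix array each. The authors deposited MAS5 signal intensities on a linear scale, made with GCOS and MAS5 (no version given) per the submitters' processing notes. The mean of the deposited signals with 2% trimmed at each end was 100.0 in both arrays, and the table has no detection calls. Probe sets took the gene of the platform annotation where it gave 1 symbol (34945 probe sets, against 932 with several and 9160 with none, besides 64 array controls). Entrez identifiers matched a RefSeq table (GRCm38.p6) for 34741 of them and changed 0 symbols.

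From these intensities log2 differences were computed with Python 3.11.15, numpy 2.4.6 and pandas 2.3.3 and centred, which moved them by 0.01. Where 1 pool lay below the floor of 19.4, the fold was taken against the floor and is a lower bound. The floor is a choice made here, not a call of detection. Genes were counted at 1.5-fold and 2-fold. Named genes are all members, up to 4 genes of each pathway list with the largest absolute difference, the 3 neighbours of Tnfrsf12a on either side of the ranking, and others given for context. The genes, lists and settings were chosen with earlier results of these data known. The procedure was tested on simulated data with less noise than the technical spread found here. Only means over groups of genes were checked, so the test says nothing of the precision of a single gene. Alternatives were quantile normalization, no centring, offsets of 16 and 32, floors at the 25th and 75th percentile and none, signals raised to the floor, the median over probe sets, and only probe sets without the suffixes s, x or a.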

Additional observations from a re-analysis of the deposited data

How the results depend on the processing

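Of 85 member differences recomputed under the alternatives, 82 moved by less than 0.38, the SD over probe sets of 1 gene. The others were Tnfrsf12a at 2.0 with an offset of 32 and 2.98 with the median over probe sets, against 2.52, and Map3k14 at -0.47 with an offset of 32, against -0.98. An offset shrinks the differences of dim genes by construction, and with that of 32 Lcn2 stood at 1.53, Ier3 at 1.11 and Tnfrsf21 at 0.84, against 2.53, 1.97 and 1.90. The 2 members at least 1.5-fold higher became 1 with an offset of 16 or 32, with the floor at the 75th percentile and without the suffixed probe sets, where Nfkb2 has no value. In the other direction Relb, below 1.5-fold as reported, passed it at its highest value, 0.64 on the log2 scale. The 1 member at least 1.5-fold lower became 0 with an offset of 32 and with the floor at the 75th percentile, which 5 members passed. The median of the members stayed between 0.23 and 0.35. For the NF-kappaB target genes the median ran from 0.14 to 0.33, against 0.24. For the early genes it ran from 0.18 to 0.37, so that the reported 0.37 is the highest. The median of the other TNF ligands was -0.67 with no floor, against -0.23. Among NF-kappaB target genes, the count at 2-fold higher ran from 2 of 13 genes above the 75th percentile to 11 of 35 with no floor, against 7 of 24, and at 1.5-fold higher from 4 to 15 at the same settings, against 10. The counts at 1.5-fold higher ran from 0 to 2 for TRAF complexes and for negative regulators, from 0 to 6 for other TNF receptors, from 0 to 4 for early genes and from 1 to 2 for subunits, inhibitors and kinases. The medians of the lists of subunits, TRAF complexes, negative regulators and other TNF receptors did not keep their sign. Over all genes the count at 2-fold higher ran from 55 of 11163 with an offset of 32 to 1661 of 18193 with no floor. It was 194 of 11163 as reported and 59 of 6751 above the 75th percentile. The count at 2-fold lower ran from 28 of 6751 above the 75th percentile to 2322 of 18193 with no floor, against 245 of 11163. At 1.5-fold these counts ran from 244 to 2856 higher, against 754, and from 212 to 3546 lower, against 873, under the 75th percentile floor and no floor. No alternative could leave out an array, since each pool has 1. Signals near the floor limit the values of Relb, Nfkb2 and Map3k14.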

Other observations

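The following genes were named after their values were seen. The linear ubiquitin ligase, which builds the chains that NF-kappaB signalling uses, has 3 subunits, and these did not move alike: Rbck1 differed by 0.60, Sharpin by -0.22 and Rnf31 by -0.47 on the log2 scale. Otulin, which removes such chains, differed by -0.02. The adhesion molecule gene Vcam1, an NF-kappaB target, had 129.3 in DEF/FOS liver and 85 in DEF/CT liver, and its 3 probe sets had differences of 0.57 to 0.69. The chemokine genes Cxcl13 and Cxcl10 were higher by 2.22-fold and 1.85-fold, and the 2 probe sets of Cxcl13 had differences of 1.15 and 0.68. The chemokine genes Ccl5 and Cxcl12 of the same list differed by 0.23 and -0.11. The target gene Sod2, at 1978 in DEF/FOS liver and 1785 in DEF/CT liver, differed by 0.16, and its 4 probe sets by -0.11 to 0.16.

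Probe sets of the same gene also lay far apart for Otud7b, with log2 differences of -0.23 to 2.26 over 4 probe sets, and Bcl2l1, with -0.36 to 1.96 over 3.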
